A study of Mus musculus with 8 samples.

Results

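The genes described here are 10 spliced, polyadenylated noncoding RNAs of the mouse whose introns carry small nucleolar RNAs (snoRNAs): Gas5, Snhg1, Snhg3, Snhg4, Snhg5, Snhg6, Snhg8, Snhg12, Snhg15 and Epb41l4aos. They were chosen by name, with earlier results of these data known. Of the 10, 7 had a row among the 41214 genes counted (Gas5, Snhg3, Snhg5, Snhg6, Snhg12, Snhg15 and Epb41l4aos), and all 7 passed the filter on low counts in every comparison. Snhg1, Snhg4 and Snhg8 matched no row and their own levels were not analysed here. The question was whether these hosts changed in the bone marrow where snoRNAs did.

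RNA-seq libraries were made from whole bone marrow (BM) of 8 mice, 2 in each of 4 groups. Mice of the KD groups carried a low-expressing Gfi1 allele, in which a human GFI1 cDNA was knocked in beside a floxed neo cassette in antisense orientation, and mice of the KO groups lacked Gfi1, a transcriptional repressor of myeloid and lymphoid cells. All mice had the C57Bl6 background and no library of wild-type mice was analysed here. In days of age, young KD mice were at 39 and 42, young KO mice at 48 and 44, sick KD mice at 187 and 78 and old KO mice at 158 and 101. The labels give acute myeloid leukemia for sick KD mice, for which the study's name is a myeloproliferative disease (MPN). Sickness and age move together between young and sick KD mice and cannot be told apart. Between old KO and sick KD mice, genotype and sickness move together and cannot be told apart either. Each library is 1 mouse.

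Counts on genes ranged from 26642067 to 42679114 per library. Uniquely aligned reads that fell in no gene made up 42.0% and 38.8% in sick KD and 26.9% to 33.8% in the other 6 libraries, and reads with several alignments numbered 1.69 and 1.87 per gene count in sick KD against 1.06 to 1.14 elsewhere. The targeted gene Gfi1 stood at 6.17 and 7.03 CPM in the libraries labelled young KD, 14.0 and 14.4 in young KO, 5.49 and 7.15 in sick KD and 13.3 and 29.7 in old KO. CPM are counts scaled to library size by the TMM method of edgeR. Every library labelled KO thus had more of the mouse gene than any library labelled KD, so these counts go against the labels if read as a measure of GFI1. The human cDNA had no count of its own, and where the reads lie on the mouse gene was not analysed here, so the labels could not be checked. Libraries are called by their labels, and every direction between KO and KD rests on them.

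Most snoRNAs of mammals are cut from introns after splicing and then guide the modification or cleavage of ribosomal RNA. Box C/D snoRNAs guide 2′-O-methylation together with the proteins Fbl, Nop56, Nop58 and Snu13, and box H/ACA snoRNAs guide pseudouridylation together with Dkc1, Nhp2, Nop10 and Gar1. A host such as Gas5 makes 2 products from 1 transcript, the snoRNAs of its introns and a spliced RNA that holds only short open reading frames. The spliced RNA of several hosts starts with an oligopyrimidine tract (TOP), is bound by ribosomes and is degraded by nonsense-mediated decay, which breaks down RNAs with early stop codons, so that its level need not follow the level of the snoRNAs.

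A library of poly(A) RNA of standard length is a poor measure of the snoRNAs themselves, which carry no poly(A) tail. Of 31 annotated snoRNA genes within the 10 hosts that had a row, 5 reached 10 counts in the sum of the 8 libraries. They were Snora73a and Snora73b in Snhg3, Snora24 in Snhg8, Snora16a in Snhg12 and the predicted snoRNA Gm23639 in Epb41l4aos. All are longer than 100 bases, whereas 19 of the 20 snoRNA genes below 100 bases in these hosts had 0 counts, among them the 9 box C/D snoRNAs of Gas5, of 60 to 84 bases. Over all 1525 snoRNA and scaRNA genes with a row (scaRNAs are relatives of the Cajal body), 4.57% of those below 100 bases, 9.23% of those from 100 to below 150 bases and 38.6% of longer ones reached 10 counts. In addition, 28 of the 31 lie in exons of the host as annotated, retained introns included, where HTSeq can tally a read as ambiguous. Of these 28, 3 reached 10 counts (10.7%) and 25 had 0, whereas 2 of the 3 outside host exons (66.7%) reached 10 counts. Over all snoRNA and scaRNA genes with a host, 29 of 155 in exons of the host (18.7%) and 95 of 519 outside them (18.3%) did. Whether length or overlap with exons sets detection in the listed hosts was not tested.

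The 4 box H/ACA snoRNAs below are the small RNAs within Snhg3, Snhg8 and Snhg12 that could be measured, and those of Snhg3 carry most of the counts. Their sequences were read from GRCm38. Capitals mark matches to the pattern ANANNA of a hinge (H) box that begin in the middle of the RNA, and the ACA that stands 3 bases from the end. In Snora16a 2 overlapping matches form the marked stretch. A match to the pattern alone does not show that it is the hinge box.
Snora73a: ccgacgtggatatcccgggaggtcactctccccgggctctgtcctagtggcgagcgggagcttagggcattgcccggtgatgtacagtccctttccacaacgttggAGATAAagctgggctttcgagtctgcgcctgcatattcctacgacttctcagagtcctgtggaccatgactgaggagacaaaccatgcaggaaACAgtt
Snora73b: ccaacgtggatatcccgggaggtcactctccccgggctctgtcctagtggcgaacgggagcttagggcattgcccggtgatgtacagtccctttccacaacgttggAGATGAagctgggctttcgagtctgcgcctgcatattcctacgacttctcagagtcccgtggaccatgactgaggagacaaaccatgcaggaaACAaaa
Snora24: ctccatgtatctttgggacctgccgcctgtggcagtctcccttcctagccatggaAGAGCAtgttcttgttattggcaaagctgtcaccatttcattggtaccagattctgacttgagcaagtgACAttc
Snora16a: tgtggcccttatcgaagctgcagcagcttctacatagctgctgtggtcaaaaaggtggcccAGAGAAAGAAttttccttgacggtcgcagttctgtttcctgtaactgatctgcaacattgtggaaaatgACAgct

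Snora73a and Snora73b (U17, also called E1) are needed for early cleavage of the ribosomal RNA precursor. Both lie on the minus strand, Snora73a at chr4:132352775-132352979 and Snora73b at chr4:132352322-132352526. They are 205 bases long and identical at 198 bases (96.6%). The 7 differences, counted from the 5′ end with the base of Snora73a first, are G3A, G54A, A111G, T164C, G203A, T204A and T205A. A read that spans none of these positions aligns to both. Reads with several alignments were tallied apart, so such a read can be lost to both genes. The split of counts between the pair rests on the reads that could be told apart. Of Snora73a, 159 bases lie in an annotated exon of Snhg3, and of Snora73b 0. Snora24 lies at chr3:123507937-123508066 on the minus strand and Snora16a at chr4:132309465-132309600 on the plus strand, each whole within an exon of its host as annotated. Gm23639, within an intron of Epb41l4aos, is 132 bases long.

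Gas5 (chr1:161034422-161038539) was the most abundant host for its length in all 4 groups. It is known as a growth-arrest transcript that is degraded in dividing cells. Divided by exon length in kilobases, Gas5 reached 65.2 ± 0.93 CPM per kb in young KD (SD, n = 2), Snhg5 26.8 ± 1.98, Snhg6 17.5 ± 0.35, Epb41l4aos 17.1 ± 0.63, Snhg3 12.03 ± 0.63, Snhg12 9.59 ± 1.96 and Snhg15 7.01 ± 0.40. Of the neighbours in this order, Snhg6 and Epb41l4aos differed by less than the SD of Epb41l4aos. In sick KD, Snhg12 with 9.16 and Snhg15 with 9.18 CPM per kb were level. The exon lengths count retained introns as exon, which lowers the values of Gas5, Snhg5 and Snhg12. On the scale of counts, not per length, Gas5 held 66.03% to 68.8% of the sum of the 7 hosts in the libraries other than sick KD, and 58.6% and 58.8% in sick KD.

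**Figure D1:**
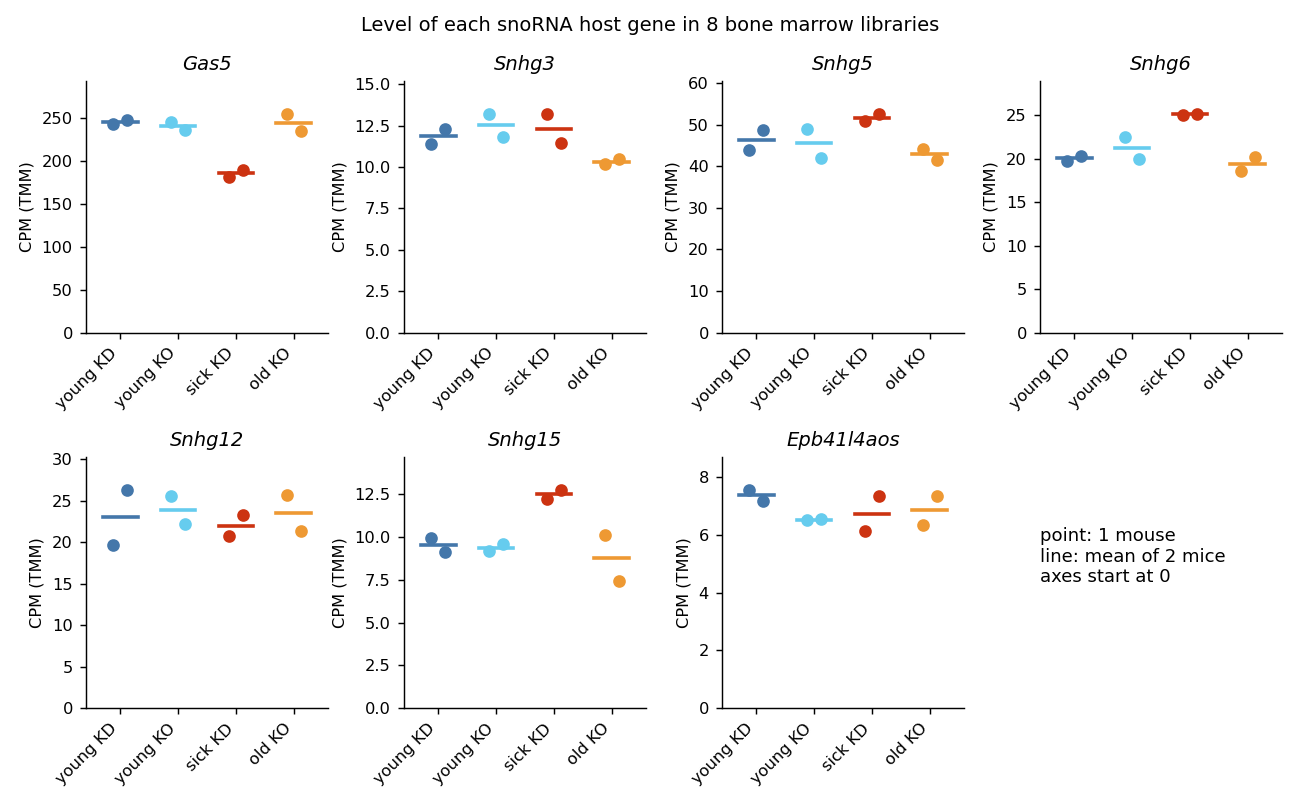
Level of the 7 measured host genes in TMM-normalized CPM (y axis, starting at 0) in the 4 groups (x axis), with 1 point per mouse and a line at the mean of 2 mice. Gas5 is lower in both sick KD mice (181 and 189 CPM) than in any other mouse, and Snhg15, Snhg6 and Snhg5 are highest in the sick KD mice.

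Sick KD mice were compared with young KD mice for the change with disease and age. Gas5 fell in sick KD, and it was the only host gene past the threshold. It measured 243 and 248 CPM in young KD and 181 and 189 CPM in sick KD. Both sick KD libraries lay below both young KD libraries and also below the other 4 libraries, which ranged from 234 to 254 CPM. The log2 fold change of Gas5 was -0.41 (SE 0.10, 95% interval -0.66 to -0.16, adjusted p = 0.0374 in the quasi-likelihood test of edgeR, adjusted by Benjamini-Hochberg over all genes tested). This 1 call among 7 hosts (14.3%) stands beside 20.9% called among all 14656 genes tested. The call was lost when either young KD mouse was left out (adjusted p of 0.273 and 0.227 in edgeR), while the value stayed between -0.44 and -0.38 whichever mouse was left out. With 1 mouse left in a group, its spread is assumed to equal that of the other group, and fewer degrees of freedom raise the p.

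The remaining 6 hosts did not pass the threshold. Snhg15 (chr11:6525591-6528760) measured 9.91 and 9.14 CPM in young KD and 12.2 and 12.8 CPM in sick KD. Snhg6 (chr1:9941959-9944118), host of the box C/D snoRNA Snord87, measured 19.8 and 20.3 CPM in young KD and 25.0 and 25.2 CPM in sick KD. For both, the groups did not overlap. Their log2 fold changes were 0.38 (SE 0.15, adjusted p = 0.121 in edgeR) and 0.32 (SE 0.12, adjusted p = 0.0984 in edgeR). Snhg5 (chr9:88521050-88522929), host of a pair of box C/D snoRNAs, measured 44.0 and 48.8 CPM in young KD and 50.8 and 52.6 CPM in sick KD, without overlap and with a log2 fold change of 0.15 (adjusted p = 0.367 in edgeR).

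Snhg3 (chr4:132348014-132353686), the host of Snora73a and Snora73b, measured 11.4 and 12.3 CPM in young KD and 13.2 and 11.4 CPM in sick KD. These libraries overlapped. Its log2 fold change was 0.05, with a 95% interval from -0.33 to 0.42 (adjusted p = 0.848 in edgeR). Snhg3 shares 135 bases of exon with the neighbouring gene Rcc1, where reads cannot be assigned to either with certainty. Snhg12 (chr4:132308623-132311024) measured 19.7 and 26.4 CPM in young KD and 20.7 and 23.2 CPM in sick KD, and Epb41l4aos (chr18:33794892-33795986) 7.56 and 7.18 against 6.14 and 7.32 CPM. Both overlapped, with log2 fold changes of -0.07 (95% interval -0.48 to 0.34) and -0.14 (95% interval -0.60 to 0.32).

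Of the 5 small RNAs within these hosts, 4 rose in sick KD, and Snora16a did not pass the test. Snora73a measured 170 and 178 CPM in young KD and 418 and 582 CPM in sick KD, and Snora73b 67.1 and 73.7 against 168 and 242 CPM. All sick KD values lay above all young KD values. Snora73a rose by a log2 fold change of 1.52 (SE 0.17, adjusted p = 0.0057 in edgeR) and Snora73b by 1.53 (SE 0.19, adjusted p = 0.00628 in edgeR), and the 95% interval of Snora73a, from 1.10 to 1.94, lies above that of Snhg3. With the trend in GC content and exon length removed, the log2 fold changes of Snora73a and Snora73b were 0.85 and 0.86, and both still passed (adjusted p of 0.00472 and 0.006 in edgeR). The library sick KD 2 had the highest level of both.

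Snora24, a box H/ACA snoRNA, measured 2.97 and 3.71 CPM in young KD and 6.86 and 11.7 CPM in sick KD, a rise of 1.47 on the log2 scale (SE 0.30, adjusted p = 0.0226 in edgeR). Gm23639 measured 2.65 and 2.56 against 5.13 and 7.61 CPM, a rise of 1.28 (SE 0.27, adjusted p = 0.0237 in edgeR). Under the same correction the log2 fold changes of Snora24 and Gm23639 were 0.60 and 0.42, and neither passed (adjusted p of 0.143 and 0.251 in edgeR). Gm23639 also lost its call without sick KD replicate 2 (adjusted p = 0.0543 in edgeR). Snora16a had between 9 and 20 counts per library, and its groups overlapped.

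**Figure D2:**
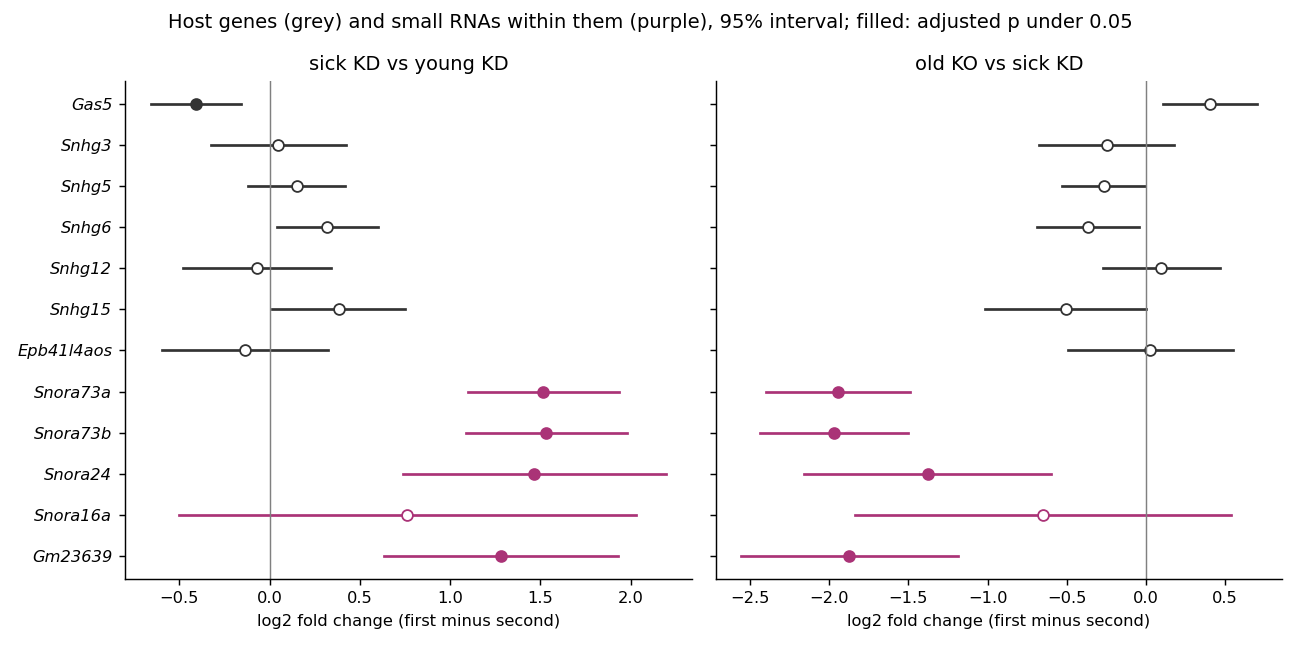
Log2 fold changes (x axis) of the 7 host genes in grey and the 5 small RNAs within host genes in purple, for sick KD against young KD (left) and old KO against sick KD (right); lines are 95% intervals of edgeR's fit and filled points passed an adjusted p of 0.05. Gas5 is filled on the left alone, and 4 of the 5 small RNAs are filled in both panels, at 1.28 to 1.53 on the left and -1.97 to -1.38 on the right.

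Old KO mice were compared with sick KD mice of similar age, the comparison between knockout and knockdown in which sick mice are on the KD side. None of the 7 hosts passed the threshold in edgeR, where 18.1% of all 14470 genes tested did. At an unadjusted p under 0.05 there were 4 hosts (Gas5, Snhg5, Snhg6 and Snhg15), and DESeq2 called 1, Gas5. Gas5 measured 254 and 234 CPM in the libraries labelled old KO against 181 and 189 CPM in sick KD. The log2 fold change of Gas5 was 0.40 (SE 0.13, 95% interval 0.11 to 0.70, adjusted p = 0.067 in edgeR). With DESeq2 the adjusted p of Gas5 was 0.0111.

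Snhg15, Snhg6 and Snhg5 had values of the opposite sign to Gas5. Snhg15 measured 10.1 and 7.43 CPM in old KO, Snhg6 18.6 and 20.2 CPM and Snhg5 44.2 and 41.6 CPM, all below both sick KD libraries. Their log2 fold changes were -0.51, -0.37 and -0.27, with adjusted p of 0.139, 0.102 and 0.134 in edgeR. The share of all genes separated in this way is not given, so the separation alone does not show a change. Snhg3 measured 10.2 and 10.5 CPM in old KO, below both sick KD libraries, with a log2 fold change of -0.25 (95% interval -0.68 to 0.18) that was near 0 with the GC and length trend removed. Snhg12 measured 25.7 and 21.3 CPM and Epb41l4aos 6.34 and 7.35 CPM in old KO, and both overlapped with sick KD.

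The same 4 of 5 small RNAs were lower in old KO than in sick KD. Snora73a measured 122 and 137 CPM in old KO and fell by 1.94 on the log2 scale (SE 0.19, adjusted p = 0.00416 in edgeR), and Snora73b measured 48.0 and 56.3 CPM and fell by 1.97 (SE 0.20, adjusted p = 0.00427 in edgeR). Gm23639 measured 1.76 and 1.71 CPM and fell by 1.87 (adjusted p = 0.00952 in edgeR), and by 1.24 with the GC and length trend removed (adjusted p = 0.0374 in edgeR). Snora24 measured 4.23 and 2.91 CPM and fell by 1.38 (adjusted p = 0.0317 in edgeR), a call lost without sick KD replicate 2 (adjusted p = 0.0946 in edgeR), without old KO replicate 2 (0.0515) and with the GC and length trend removed (0.197). The comparisons with sick KD share these 2 libraries and are not independent of each other.

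The count of Snora73a per count of Snhg3 places the small RNA beside its host within each library, where scaling cancels. It was 14.9 and 14.5 in young KD, 14.2 and 12.5 in young KO, 31.6 and 50.8 in sick KD and 11.97 and 13.1 in old KO. Both sick KD libraries stood apart from the other 6, which spanned 11.97 to 14.9. The ratio was 2.74-fold higher in sick KD than in young KD and 3.20-fold higher than in old KO. For Snora73b the ratio ran from 4.63 to 5.995 in the other libraries and was 12.7 and 21.1 in sick KD. Gm23639 per count of Epb41l4aos was 0.836 and 1.04 in sick KD and 0.228 to 0.402 elsewhere. Snora16a per count of Snhg12, with 9 to 20 counts per library, was 0.0175 and 0.0306 in sick KD and 0.0113 to 0.0164 elsewhere. With 2 mice against 2, the two-sided exact permutation test cannot go below 0.333, which is the p of each of these 4 ratios in both comparisons.

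**Figure D3:**
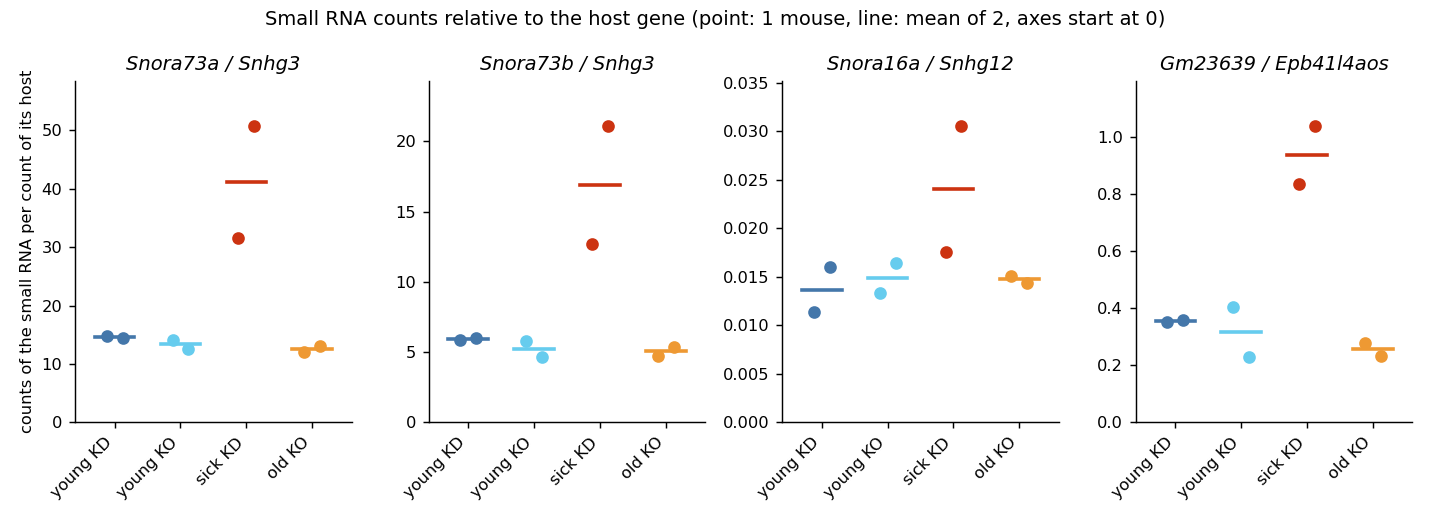
Counts of a small RNA per count of its host gene (y axis, starting at 0) in the 4 groups (x axis), with 1 point per mouse and a line at the mean of 2 mice. In all 4 panels the sick KD mice lie above all other mice, in that of Snora16a, with few counts, at 0.0175 and 0.0306 against 0.0113 to 0.0164 elsewhere.

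Young KO and young KD mice were compared before disease. No host was called (0 of 7, also with DESeq2, and 0 at an unadjusted p under 0.05), beside 0.0404% of all 14839 genes tested. Gas5 measured 245 and 236 CPM in young KO, and its log2 fold change of -0.03 had a 95% interval from -0.21 to 0.14. Log2 fold changes of the 7 hosts ran from -0.18 (Epb41l4aos) to 0.08 (Snhg6). The 5 small RNAs within hosts were not called either, with Snora73a at 187 and 148 CPM and Snora73b at 76.9 and 54.7 CPM in young KO.

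Old KO and young KO mice were compared for the change with age without Gfi1. Again 0 of 7 hosts were called in edgeR and in DESeq2 and 0 had an unadjusted p under 0.05, beside 0.929% of all 14847 genes tested. Gas5 had a log2 fold change of 0.02 (95% interval -0.19 to 0.24). Snhg3 was the host farthest from 0, at -0.28 (95% interval -0.62 to 0.06), with no overlap between 13.2 and 11.8 CPM in young KO and 10.2 and 10.5 CPM in old KO.

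The interaction asks whether the KO-to-KD difference in old or sick mice departed from that in young mice, in a fit of all 8 mice. Only KD mice were sick among the old or sick mice, so the interaction cannot tell genotype from sickness. None of the 7 hosts was called in edgeR, beside 7.43% of all 15102 genes tested. There were 2 at an unadjusted p under 0.05 (Gas5 and Snhg6), and DESeq2 called 1 (Gas5). The value of Gas5 was 0.43 (SE 0.12, adjusted p = 0.0726 in edgeR and 0.0135 in DESeq2) and that of Snhg6 was -0.45 (SE 0.15, adjusted p = 0.0998 in edgeR). Snora73a had -1.89 (SE 0.24, adjusted p = 0.0107 in edgeR) and Snora73b -1.88 (SE 0.29, adjusted p = 0.016 in edgeR), both past the threshold.

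All snoRNA and scaRNA genes are given beside those of the listed hosts. In sick KD against young KD, 64 of 86 tested snoRNA and scaRNA genes were called (74.4%, beside 20.9% of all genes). All 64 were higher, with a median log2 fold change of 1.496, where the median over all genes tested was 0.01. In old KO against sick KD, 62 of 84 were called (73.8%, beside 18.1% of all genes), all 62 lower, with a median of -1.75. DESeq2 called fewer, 50 in each of these comparisons with sick KD. Genes to which DESeq2 gave no adjusted p could not be called, so its 50 are not out of the same tested genes. Over all genes DESeq2 called more than edgeR, 3394 against 3063 in sick KD against young KD and 3059 against 2626 in old KO against sick KD. In the young comparison and in old KO against young KO 0 of 75 were called in edgeR and in DESeq2, with 2 and 10 genes at an unadjusted p under 0.05. The interaction called 33 of 87 in edgeR (37.9%, beside 7.43% of all genes), and 41 in DESeq2. A gene that passed the filter only through sick KD had to differ, so these counts were repeated with at least 10 counts required in every mouse, which gave 58 of 67 and 53 of 60 genes called. Sick KD replicate 2 and young KD replicate 1 bear on the counts. Without sick KD replicate 2 there were 34 calls against young KD and 37 against old KO, and without young KD replicate 1 there were 37 against sick KD.

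The small RNAs with the highest levels outside the listed hosts were Scarna2, Scarna10, Gm22009 and Rnu3a. Rnu3a, a copy of the box C/D snoRNA U3, stands in no host and has a promoter of its own. It measured 126 and 155 CPM in young KD, 154 and 115 in young KO, 373 and 491 in sick KD and 80.6 and 101 in old KO. The sick KD libraries were again above the other 6. In sick KD against young KD it rose by 1.61 on the log2 scale (SE 0.18, adjusted p = 0.00532 in edgeR). Scarna2, also within no gene, rose by 1.06 (SE 0.18, adjusted p = 0.0132 in edgeR). Among snoRNA and scaRNA genes within no gene, 7 of 8 tested were called, beside 4 of 5 within the listed hosts, 5 of 6 within other noncoding genes and 48 of 67 within protein-coding genes. These counts rest on the filter by group, through which a gene high in sick KD alone could pass.

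**Figure D4:**
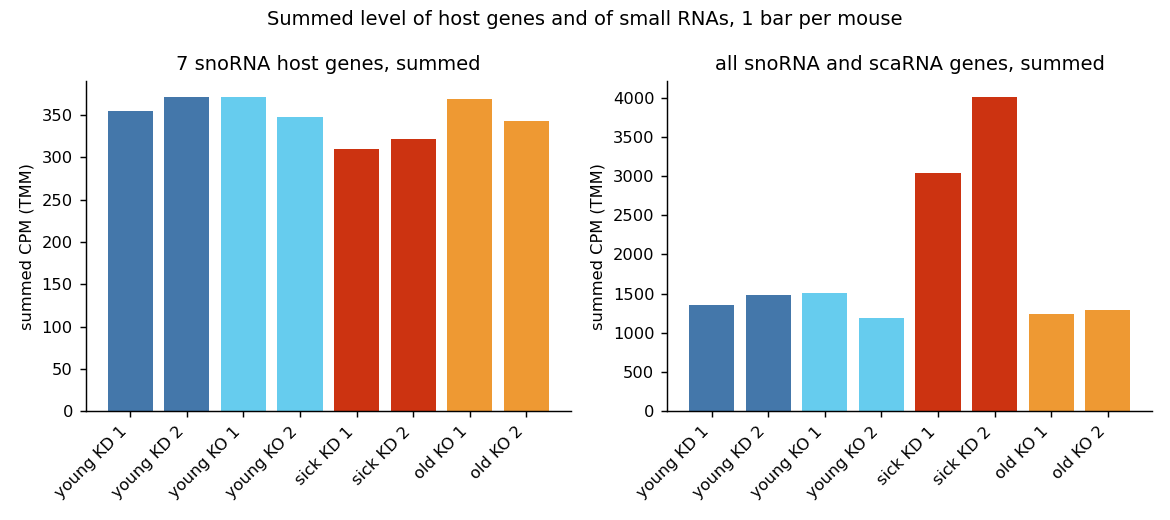
Summed TMM-normalized CPM (y axis, starting at 0) of the 7 measured host genes (left) and of all snoRNA and scaRNA genes (right), 1 bar per mouse, coloured by group. Host genes sum to 309 and 322 CPM in sick KD and 343 to 372 in the other mice, whereas the small RNAs sum to 3039 and 4010 CPM in sick KD and 1192 to 1502 in the others.

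Each measured small RNA was then set beside its own host. In sick KD against young KD there were 75 pairs with 63 hosts. Of the small RNAs, 55 were called, and for 43 of these the host was not. Small RNAs of the 75 pairs had a median log2 fold change of 1.496, and their hosts one of 0.09. Across these pairs Pearson's r was 0.08 and Spearman's rho 0.07. In old KO against sick KD, 53 of 73 small RNAs were called and for 41 the host was not, with medians of -1.84 for the small RNAs and -0.11 for the hosts and an r of 0.10. The pairs share libraries, and several share a host. They were formed under the filter by group, through which a small RNA high in sick KD alone could pass. The shares called and the medians of the small RNAs may be partly set by that filter. Among the 4 pairs with a listed host, 3 small RNAs and 0 hosts were called in either comparison.

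**Figure D5:**
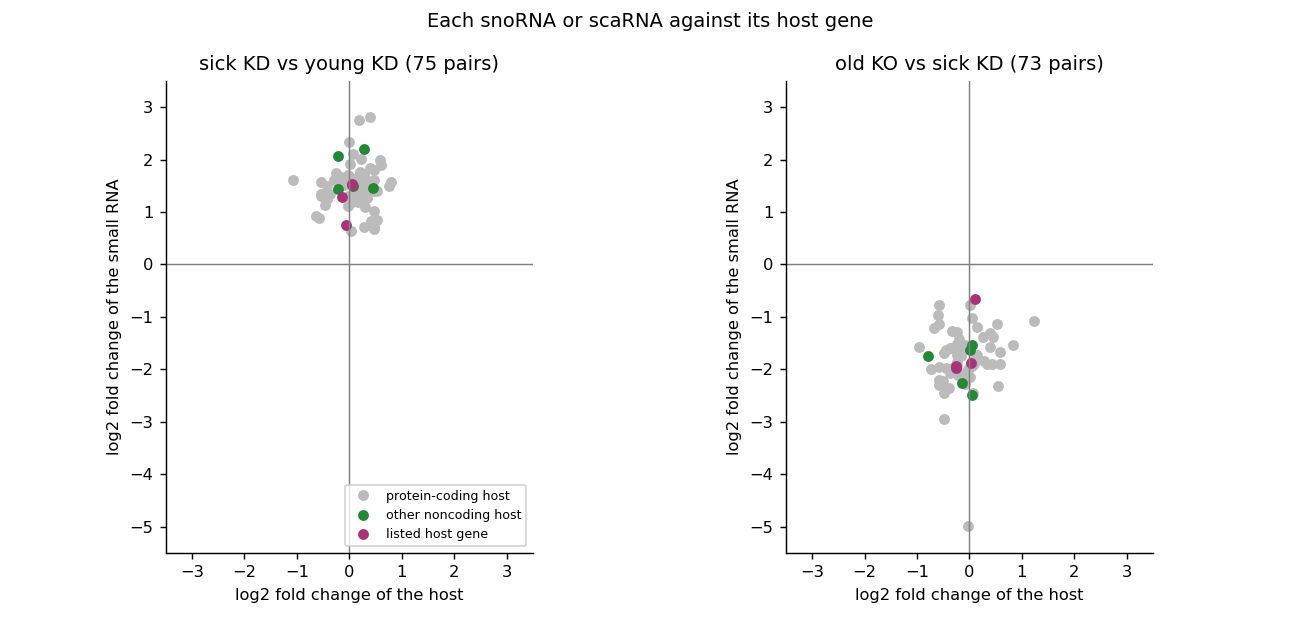
Log2 fold change of each snoRNA or scaRNA (y axis) against that of its host gene (x axis), for sick KD against young KD (left, 75 pairs) and old KO against sick KD (right, 73 pairs), coloured by kind of host. The small RNAs lie on 1 side of 0, from 0.64 to 2.82 on the left and from -4.99 to -0.65 on the right, while the hosts lie on both sides. The value of -4.99 is that of Scarna8, at a mean of 0.0176 CPM in old KO and 0.605 in sick KD. A small RNA that passed the filter only through sick KD had to differ.

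Protein-coding hosts outside the list were called at a share close to that of all genes. Of 224 tested protein-coding hosts of snoRNAs, 38 were higher and 17 lower in sick KD than in young KD (24.6% called, beside 20.9% of all genes), with a median log2 fold change of 0.09. In old KO against sick KD 15 were higher and 28 lower (19.2% called, beside 18.1% of all genes). Among those called were Dpep2, a dipeptidase, at 2.17 in sick KD against young KD (adjusted p = 0.00516 in edgeR), and Chd3, a chromatin remodeller, at 1.24 in old KO against sick KD (adjusted p = 0.00564 in edgeR). Of 12 other noncoding hosts, 5 were tested in sick KD against young KD and 0 were called, none of them at an unadjusted p under 0.05 or in DESeq2. Zfas1, a host of box C/D snoRNAs, had a log2 fold change of 0.03, Snhg20 of 0.15 and Snhg9, host of Snora78, of 0.45 (adjusted p of 0.864, 0.597 and 0.32 in edgeR). Snora78 itself rose by 1.47 (adjusted p = 0.0152 in edgeR).

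The proteins that bind snoRNAs are read beside the 20.9% and 18.1% of all genes called in these comparisons, and their lists are short. In sick KD against young KD, 0 of the 4 box C/D core proteins were called in edgeR or DESeq2 (1 at an unadjusted p under 0.05), with Fbl, the methyltransferase, at 0.03 and Nop58 at 0.02. Among the 4 box H/ACA core proteins, Nhp2 rose by 0.59 (adjusted p = 0.0149 in edgeR), and Dkc1, the pseudouridine synthase, had a value near 0 (adjusted p = 0.992 in edgeR). In old KO against sick KD, Nhp2 fell by 0.55 (adjusted p = 0.0239 in edgeR). Of the 10 assembly factors tested, such as Nufip1 and Znhit6, 0 were called in either comparison by edgeR or DESeq2, with 4 and 2 at an unadjusted p under 0.05.

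Factors that act on the spliced or intronic RNA were called at shares close to or below those of all genes. Upf1, the helicase of nonsense-mediated decay, fell by 0.47 in sick KD against young KD (adjusted p = 0.0456 in edgeR) and was the only one of 10 decay factors that edgeR called there, where DESeq2 called 3 (Upf1, Smg1 and Smg6). In old KO against sick KD, Upf1 rose by 0.58 (adjusted p = 0.0267 in edgeR) and Smg1, the kinase that phosphorylates Upf1, fell by 0.68 (adjusted p = 0.0312 in edgeR). Dbr1, which opens the intron lariats from which snoRNAs are released, had -0.20 and 0.19 (adjusted p of 0.275 and 0.351 in edgeR). Of 15 debranching and exosome genes, 3 were called in each comparison (20%, beside 20.9% and 18.1% of all genes). Exosc1 and the nuclease Exosc10 rose by 0.61 and 0.45 in sick KD and Exosc3 fell by 0.45, with adjusted p of 0.0206, 0.027 and 0.0393 in edgeR.

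Cytosolic ribosomal protein genes are known for RNAs that also start with a TOP tract. Their list was taken by symbol and had 92 genes with a row. It also holds Rpl10l and symbols of pseudogenes such as Rpl10-ps3, both at 0 in every group. The same list was used for the gene starts below. In sick KD against young KD 44 of 85 tested were called (51.8%, beside 20.9% of all genes), all 44 higher and so opposite to Gas5, with a median log2 fold change of 0.42 over the 85. In old KO against sick KD 13 of 85 were called in edgeR (15.3%, beside 18.1% of all genes), all 13 lower, with a median of -0.37. Of these 85, 6 had a value above 0. An unadjusted p under 0.05 in edgeR was reached by 47, beside 5177 of all 14470 genes tested. DESeq2 called 45, beside 3059 of all genes. Rpl38 rose by 0.82 and fell by 0.83 in these comparisons (adjusted p of 0.00835 and 0.0125 in edgeR). Of 10 regulators of TOP RNAs and mTORC1, 2 were called in sick KD against young KD (20%, beside 20.9% of all genes). They were Eif4ebp1 and Eif4ebp2, repressors of cap-dependent translation, which rose by 0.44 and 0.55 (adjusted p of 0.046 and 0.036 in edgeR). Larp1, which binds TOP tracts, had 0.31 (adjusted p = 0.13 in edgeR).

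The first bases of the hosts are shown to place them beside these genes. The windows are from RefSeq on GRCm38, from 10 bases before the annotated start to 19 after it. Capitals mark a run of at least 5 bases made of C and T that begins with C within 3 bases of the start, read on the gene's strand alone.
Gas5 (chr1:161035156-161035185, plus strand): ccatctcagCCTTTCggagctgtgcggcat
Snhg12 (chr4:132308668-132308697, plus strand): ttctcagtCCTTTCTCgcttcatccgcggt
Snhg3 (chr4:132353667-132353696, minus strand): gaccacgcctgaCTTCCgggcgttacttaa
Snhg5 (chr9:88522878-88522907, minus strand): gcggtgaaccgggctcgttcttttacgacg
Snhg15 (chr11:6528741-6528770, minus strand): ctgtgaccgtaactttaagcacacgtgagc
Such a run was found at 4 of the 8 starts listed for 7 of the 10 hosts, among them Snhg8, at 36.4% of 77 starts of ribosomal protein genes and at 11.5% of all 32851 starts. Gas5 has a second annotated start without the run. For Snhg5 and Snhg15 no such run begins within 3 bases of the annotated start. The run was also missing at most starts of ribosomal protein genes, so its absence does not show that a TOP tract is absent. The run of Snhg3 has the minimum of 5 bases and begins 2 bases after the annotated start. Gas5, with the run, fell in sick KD, and Snhg12 and Snhg3, also with it, overlapped between sick KD and young KD. Whether the run bears on these changes was not tested.

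Across the 8 libraries Gas5 had the opposite order to several other hosts. Pearson's r of log2(CPM + 1) with Gas5 was -0.89 for Snhg6, -0.74 for Snhg15 and -0.63 for Snhg5, whereas Snhg5 and Snhg6 had an r of 0.83 with each other. These values are descriptions over 8 libraries in which sick KD stands apart. The protein-coding genes most like the sum of the 7 hosts, of 8944 compared, were Srsf5, Sugp1, Rbm45, Dnajc27 and Ap3m2, with r between 0.979 and 0.981. Gas5 held 58.6% to 68.8% of that sum, so these genes need not be like the other hosts. Srsf5, a splicing factor, averaged 341 CPM in young KD, 314 in young KO, 235 in sick KD and 330 in old KO.

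Markers of cell types moved with the sick KD group too. In bulk RNA fewer cells of a type and less RNA per cell cannot be told apart. All 12 B cell markers fell in sick KD against young KD, and their summed level was 39.7 to 109 CPM in sick KD, 902 to 1223 in young KD, 731 to 1015 in young KO and 147 to 235 in old KO. All 12 erythroid markers fell as well, with sums of 1012 to 1439 CPM in sick KD, 2285 to 5547 in young KD, 2110 to 4794 in young KO and 3983 to 6313 in old KO. Of 14 neutrophil markers 5 were higher and 1 lower in sick KD than in young KD, with sums of 8476 to 10573 CPM in sick KD and 4688 to 6096 in the other groups. Of 12 T and NK cell markers 4 were called lower in sick KD than in young KD. Their sums were 29.0 to 31.0 CPM in sick KD. In young KD, young KO and old KO they were 63.9 to 66.3, 63.6 to 73.9 and 59.9 to 75.2. Of 10 monocyte and macrophage markers 2 were higher and 3 lower, with sums of 9427 to 10101 CPM in sick KD and 6363 to 8237 in young KD. Of 10 megakaryocyte markers 1 was higher, and of 10 stem and progenitor markers 1 was higher and 1 lower. These counts stand beside 20.9% of all genes called in this comparison. None of these markers was at 0 in a whole group. The part of cell composition, of reads outside genes and of reads with several alignments in the values of Gas5 and of the small RNAs was not tested.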

How the data were processed

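The authors extracted RNA of whole BM, prepared stranded poly(A) libraries (TruSeq), aligned reads with Tophat 2.0.10 to mm10 (GRCm38) and counted them on Ensembl genes with HTSeq. They deposited raw counts per gene for each mouse, with 5 tallies of unassigned reads, which were left out of library sizes. The Ensembl release and the strand setting are not given in the sources used here. Symbols, exons and snoRNA positions were taken from GENCODE M21 (40340 of 41214 rows matched) and promoters from RefSeq (GRCm38.p6).

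Each pair of groups was fitted on its own 4 mice, and the interaction on all 8, with edgeR 4.0.16 in R 4.3.3 (TMM, filterByExpr by group, quasi-likelihood test, adjusted p under 0.05). Standard errors were derived from the log2 fold change and the F of the test. p-values measure the spread between the mice. Replicate pairs were checked for duplicate deposits and none was found (chi-square per degree of freedom of 23.5 to 38.8). Simulated counts with known changes were recovered at 38.8% (1.5-fold), 92.5% (2-fold) and 100% (4-fold) of the changed genes in sick KD against young KD, and at 31.3%, 89.6% and 100% in old KO against sick KD, on 14656 and 14470 genes. The changed genes, 67 or 66 per fold, were drawn from those above a floor of mean CPM. These shares therefore do not extend to small RNAs of low level such as Snora16a and Gm23639. In each of these comparisons 7 unchanged genes were called.

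The members and lists were chosen with earlier results of these data known. Named were all members, snoRNAs within them with at least 10 counts in total, at most 4 called genes per list by the largest change, the 5 protein-coding genes with mean CPM of at least 10 most like the summed members, and the 4 tested snoRNA or scaRNA genes with the highest mean CPM elsewhere. Dkc1, Fbl, Nop58, Nufip1, Znhit6, Dbr1, Larp1, Zfas1, Snhg9 and Snhg20 were named outside this rule, after their values were seen. Alternatives were DESeq2 1.42.0, its size factors, other filters, leaving out small RNA, histone and mitochondrial genes, removing the trend in GC content and exon length, fitting all 8 mice, and leaving out each mouse.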

Additional observations from a re-analysis of the deposited data

Results flagged for a closer look

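For Snora73a and Snora73b, both within Snhg3, the KO-to-KD difference in old or sick mice departed from that in young mice by the test of the interaction over 8 mice. The difference of differences was -1.8913 for Snora73a and -1.87567 for Snora73b on the log2 scale (adjusted p of 0.0107 and 0.016 in edgeR). In young mice the KO-to-KD log2 difference was -0.06 for Snora73a and -0.10 for Snora73b, and between old KO and sick KD it was -1.94 and -1.97. Only the KD mice of the latter comparison were sick, so genotype and sickness cannot be told apart there. Snora73a lost its call without young KD replicate 1 (adjusted p = 0.05004 in edgeR). Snora73b lost it without young KD replicate 1, young KO replicate 1 or old KO replicate 1 (adjusted p of 0.0643, 0.0567 and 0.0557 in edgeR). With each mouse left out in turn the values ran from -2.11 to -1.64 for Snora73a and from -2.11 to -1.60 for Snora73b, and with the GC and length trend removed they were -1.42 and -1.39. The pair is 96.6% identical in sequence, so these are not independent results. Their host Snhg3 had -0.33 in the same test (adjusted p = 0.305 in edgeR).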

How the results depend on the processing

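No paired analysis was possible because mice of different groups carry no common replicate number in the labels. Under settings that keep all mice, 303 of 320 values of hosts and small RNAs kept direction and side of the threshold, and with a mouse left out 213 of 248 did. Of the hosts, 1 was called in old KO against sick KD with DESeq2, without a filter beyond 1 count, or with the GC and length trend removed (Gas5 each time, adjusted p from 0.0111 to 0.0439), and 2 with all 8 mice fitted together (Gas5 and Snhg6). In the interaction 1 host (Gas5) was called with DESeq2 or with the GC and length trend removed. Without a filter beyond 1 count, 4 snoRNA genes were called in old KO against young KO and 63 in the interaction. The GC and length correction reversed the sign of Snhg3 in old KO against sick KD (0.0020825) and in sick KD against young KD (-0.166124), and of Snora16a in the latter (-0.0792711), none of them called. The cause was not tested. Leaving out each mouse in turn, hosts called ranged from 0 to 1 in sick KD against young KD (0 without young KD replicate 1 or 2) and stayed at 0 in the other comparisons. Calls among snoRNA genes ranged from 34 to 64 in sick KD against young KD, from 37 to 58 in old KO against sick KD and from 4 to 28 in the interaction (4 without young KD replicate 1, 6 without young KO replicate 1, 8 without old KO replicate 1), and stayed at 0 in both other comparisons. Signs reversed with a mouse left out only for values that were not called. For young KO against young KD these ran from -0.00687 to 0.15 for Snhg3, -0.14 to 0.0716 for Snhg5, -0.00797 to 0.16 for Snhg6, -0.14 to 0.28 for Snhg12 and -0.0842 to 0.0348 for Snhg15. For old KO against sick KD they ran from -0.0292 to 0.22 for Snhg12 and -0.0934 to 0.16 for Epb41l4aos, and for sick KD against young KD from -0.0556 to 0.15 for Snhg3 and -0.27 to 0.13 for Snhg12. For old KO against young KO they ran from -0.0416 to 0.0799 for Gas5, -0.19 to 0.0172 for Snhg5, -0.17 to 0.10 for Snhg12, -0.34 to 0.11 for Snhg15 and -0.0413 to 0.17 for Epb41l4aos, and in the interaction from -0.19 to 0.23 for Snhg12. Snora16a had the fewest counts of the measured small RNAs within hosts, at 9 to 20 per library, and the cause of this was not tested.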
